A study of Callithrix jacchus with 54 samples.

Results

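This section describes the effect of BMS493 on primordial germ cell-like cells (PGCLCs) of the common marmoset, sorted at 96 h of induction. The comparison was defined by the labels: 2 libraries of sorted reporter-positive cells induced with BMS493 (BLSERIBMS_BH_96h) were set against 2 libraries of sorted reporter-positive cells induced without it (BLSERI_BH_96h), 4 of the 54 libraries of the series. All 4 came from CMES40, a single embryonic stem cell line (cjESCs) labelled wild type, which carries the reporters BLIMP1-tdTomato and NANOS3-eGFP. The cells had been kept in PESFA medium and pre-induced with IM12 and activin A. They were then cultured for 96 h with IWR1 together with BMP4, SCF, LIF, EGF and a Rock inhibitor, and BMS493 was the only agent that differed between the groups. The libraries were made from poly(A) RNA of cells labelled tdTomato(+), which the paper describes as positive for both reporters. A level is an average over the cells that passed the gate, and in such data fewer cells of a type and less RNA per cell cannot be told apart. The duplicates are described as biological, but both come from the same line, and the p-values therefore measure the spread between libraries of that line.

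Retinoic acid binds the receptors RARA, RARB and RARG, which sit on DNA with RXR partners and recruit co-activators when the ligand is bound and co-repressors when it is not. BMS493 is an inverse agonist of all RARs, which favours the co-repressor-bound state. BMP4 is the main inducer of the germ cell fate. It acts through SMAD1 and SMAD5 and directly induces ID genes, MSX genes and the inhibitory SMADs, and it also drives amnion and extraembryonic mesoderm in primates, which share GATA2, GATA3, HAND1 and TBX3 with early germ cells or their neighbours. IWR1 blocks canonical WNT signalling by stabilising AXIN.

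The sorted cells carried the germ cell program in all 4 libraries, in the unit used throughout, TPM (transcript abundance scaled to a fixed total per library). SOX17, the upstream factor of primate germ cell fate, was at 474 and 555 TPM without BMS493 and at 718 and 582 TPM with it. TFAP2C, which acts with SOX17, was at 771, 859, 882 and 870 TPM in the same order, and PDPN, a surface marker of these cells, at 847, 877, 958 and 1022 TPM. POU5F1 lay between 6545 and 7085 TPM, and SOX2, which primate germ cells switch off, did not exceed 1.21 TPM. PRDM1 (BLIMP1), the gene whose reporter was sorted on, was at 156, 181, 203 and 169 TPM. Genes listed here under other lineages were also present, at up to 284 TPM for APOA1 (endoderm list) and 278 TPM for GATA2 (amnion-like list). Neither is particular to these 4 libraries. Sorted cells of 96 h with BMP4 and enforced SOX17 held 122 and 186 TPM of APOA1 and 179 and 241 TPM of GATA2. Some defining markers were listed at 0 in all 4 libraries: AFP, CER1 and PRSS2 among endoderm genes, EMCN among endothelial genes, and SOX1 and NCAM1 among neural genes. Leaving aside PRDM1, which the gate selects, the markers thus went with the label. KIT, another surface protein of germ cells, was at only 2.61 to 3.90 TPM, but was listed at 0 in both libraries of cjESCs in PESFA. PDPN (682 and 654 TPM) and POU5F1 (3429 and 3297 TPM) were already high in those cjESCs. The summed TPM of the 14812 genes in the table was 830575 to 834587 in these libraries, with 9401 to 9706 genes at 1 TPM or more. TPM keeps no record of sequencing depth, so the precision of low values is unknown. Widely used genes such as NCOR1 were also near 0 (0.18 to 0.73 TPM), and a low value may be a failed estimate rather than absence.

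The sorted cells with and without BMS493 differed little as whole transcriptomes. The root mean square difference of log2(TPM + 1) over 11197 genes was 0.426 between the libraries without BMS493, 0.324 between those with it, and 0.415 to 0.490 between the groups, so that the difference between groups overlapped the spread within them. In the unsorted cells at 48 h the differences between groups, 0.577 to 0.620, lay just above those within them, 0.575 and 0.418. Single genes were tested with limma on log2(TPM + 1), with the spread estimated over all 54 libraries and p-values adjusted by the Benjamini-Hochberg method over all 11197 genes. A gene was called at an adjusted p below 0.05. With BMS493, 298 genes were called (2.66% of those tested), 142 higher (1.27%) and 156 lower (1.39%). Their median size was 0.91 on the log2 scale, and 128 of them changed more than 2-fold. Only 4 genes met the stricter definition of more than 4-fold, adjusted p below 0.01 and mean log2 level above 1.5 (0.0357% of those tested): EN2, DLX3 and DEPP1 were higher and the unnamed locus LOC100408003 lower. The median difference of all genes was -0.062. Under median-ratio scaling 247 of 368 called genes (67.1%) were higher and under quantile normalization 228 of 392 (58.2%), against 47.7% as deposited, so the balance of higher and lower calls depended on the scaling. The calls rest on the spread borrowed from the other libraries: a limma fit on the 4 libraries alone, with 2 residual degrees of freedom, called 0 genes (1644 at an unadjusted p below 0.05, against 1750). An exact permutation test of 2 against 2 libraries cannot give a p below 0.333. Single libraries mattered as well. Without the first BMS493 library 44 genes were called, without the second 169, without the first control library 230 and without the second 144.

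**Figure D1:**
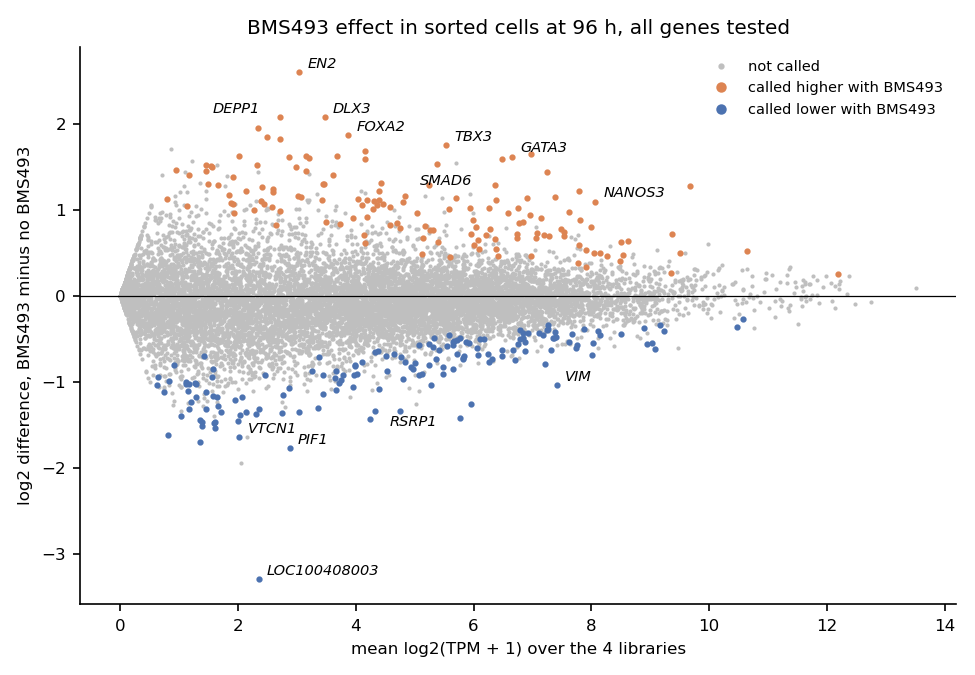
The difference between sorted cells with and without BMS493 at 96 h (vertical axis, log2) is plotted for each of 11197 genes against the mean log2(TPM + 1) of the 4 libraries (horizontal axis). Coloured points are the 142 genes called higher and the 156 called lower. EN2 has the largest increase (2.60) and LOC100408003 the largest decrease (-3.29), and most called genes lie within 2 log2 units of 0.

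The largest increase was that of EN2, a homeobox gene of the midbrain-hindbrain boundary. EN2 was at 1.32 and 3.78 TPM without BMS493 and at 27.0 and 13.5 TPM with it, a log2 difference of 2.60 ± 0.38 (SE; adjusted p = 0.000161). The BMS493 libraries both lay above the controls, and the call remained when any of the 4 libraries was left out (2.08 to 3.12). EN2 had been close to 0 before: it was at 0.00 to 0.49 TPM in every library of 12, 24 and 48 h, with or without BMS493. Of 16 anterior and neural factors tested, EN2 was the only gene called higher and HESX1 the only gene called lower, against 1.27% and 1.39% of all genes. HESX1, a repressor of the anterior neural plate and pituitary, fell from 4.32 and 3.58 TPM to 1.12 and 0.96 TPM (-1.28 ± 0.33, adjusted p = 0.0275), a call that was lost when any of the 4 libraries was left out (adjusted p = 0.0909 to 0.153) or with a pseudocount of 0.1 (0.257). The list had a median difference of -0.02. OTX2 was at 0.37 to 0.67 TPM and PAX2 at 0.00 to 0.43 TPM, and ZIC2 at 4.20, 11.1, 9.77 and 4.06 TPM gave no difference (-0.10, adjusted p = 0.978).

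DLX3, a homeobox gene of surface ectoderm and trophoblast that responds to BMP, was at 3.48 and 5.51 TPM without BMS493 and at 36.8 and 12.8 TPM with it (2.08 ± 0.40, adjusted p = 0.00235). The BMS493 libraries lay far apart but both above the controls, and without the higher of them the difference was 1.35 (adjusted p = 0.209). In unsorted cells at 48 h DLX3 was already higher with BMS493, at 6.23 and 4.15 TPM without it and 12.0 and 14.9 TPM with it (limma, 1.24 ± 0.40, adjusted p = 0.0396). Its effects at 96 h and 48 h did not differ past the threshold (0.84, adjusted p = 0.465). DEPP1, a gene induced by FOXO factors and by fasting, was at 0.74 and 4.81 TPM without BMS493 and at 9.96 and 15.4 TPM with it at 96 h (2.08 ± 0.45, adjusted p = 0.00729). Both BMS493 libraries were above the controls, but its call was lost without the lower control library (1.21, adjusted p = 0.207) and without the higher BMS493 library (1.79, adjusted p = 0.108). DEPP1 was the only called gene among 14 FOXO-responsive genes, whose median difference was -0.01. Over all genes, 1.27% were called higher. TXNIP, an inhibitor of thioredoxin, for example, was at 81.4, 67.4, 80.8 and 62.6 TPM and CITED2 at 193, 210, 250 and 166 TPM.

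VIM, an intermediate filament protein of mesenchymal cells, went the other way. It was at 229 and 259 TPM without BMS493 and at 115 and 121 TPM with it (-1.04 ± 0.19, adjusted p = 0.00122), with close replicates in both groups. The call remained when any of the 4 libraries was left out (-1.12 to -0.95). LOC100408003, a protein-coding locus without a symbol, was at 13.7 and 16.4 TPM without BMS493 and at 0.55 and 0.72 TPM with it (-3.29 ± 0.67, adjusted p = 0.00434). Without the first BMS493 library its adjusted p was 0.0877. Its level was uneven elsewhere too, at 80.1 and 1.45 TPM in the BMS493 libraries of 48 h. With a pseudocount of 0.1 in place of 1, the adjusted p-values of EN2, DLX3 and DEPP1 were 0.0943, 0.0982 and 0.0847, and VIM and LOC100408003 kept their calls (0.00218 and 0.00209).

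**Figure D2:**
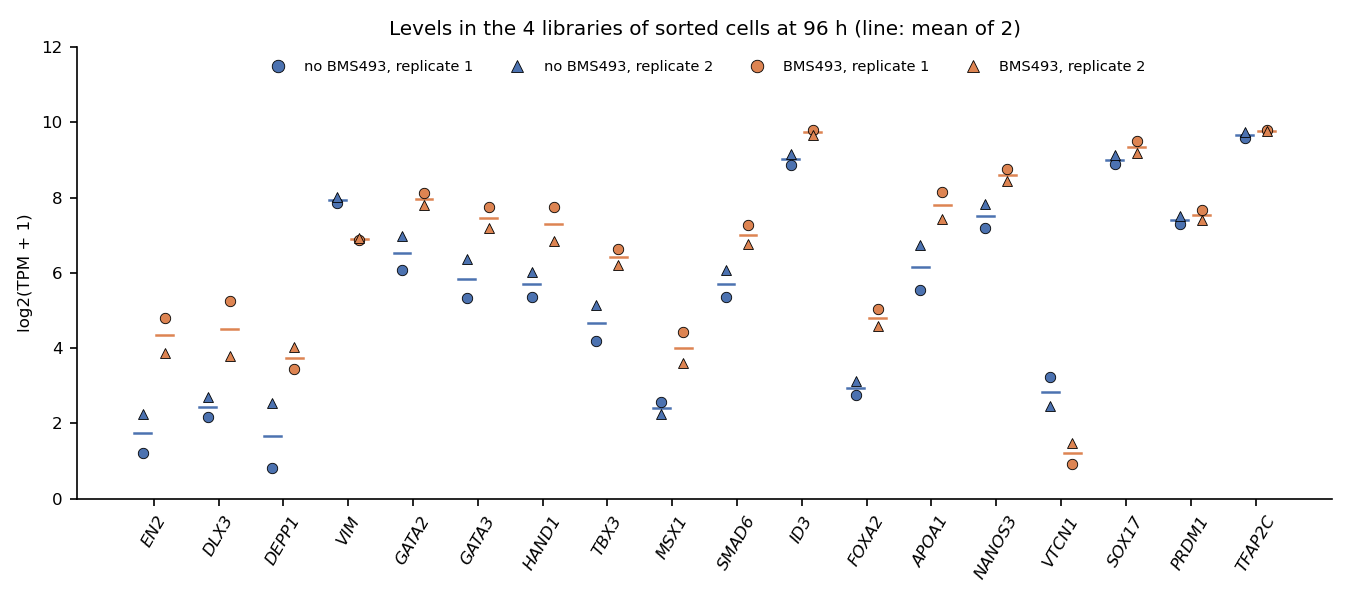
Levels of 18 genes in each of the 4 libraries of sorted cells at 96 h are shown as log2(TPM + 1) (vertical axis), blue for the 2 libraries without BMS493 and orange for the 2 with it, with circles for replicate 1, triangles for replicate 2 and a line at the mean. The groups are apart for EN2 through VTCN1, with VIM and VTCN1 lower with BMS493, while PRDM1 overlaps and SOX17 and TFAP2C nearly do.

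The list of BMP target genes had the most calls. Of 17 tested, 6 rose (ID3, SMAD6, SMAD7, MSX1, TBX3 and DLX3) and DLX5 fell, against 1.27% and 1.39% of all genes, and the median of the list was 0.60 against -0.062 over all genes. In 12 of the 17 both BMS493 libraries lay above both controls, which holds for 17.2% of all genes. The list was chosen with earlier results of these data known, so that its count describes these genes and is not independent evidence. In sorted cells of 96 h with enforced SOX17, not all called members were lower without BMP4 (TG_LSERSOX17_BH_96h) than with it (TG_BLSERSOX17_BH_96h). DLX3 was at 39.2 and 48.2 TPM without BMP4 against 48.1 and 36.7 TPM with it. TBX3 was at 54.8 and 109 against 42.5 and 59.4 TPM. SMAD6 overlapped too, while ID3, SMAD7, MSX1 and DLX5 were lower without BMP4.

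Among the inhibitors that BMP signalling induces against itself, SMAD6 was at 39.6 and 66.8 TPM without BMS493 and at 152 and 107 TPM with it (1.29 ± 0.21, adjusted p = 0.000352), and SMAD7 was at 43.6 and 52.1 against 84.8 and 73.4 TPM (0.72 ± 0.17, adjusted p = 0.0153). BAMBI, a decoy receptor, was at 211 and 316 against 410 and 364 TPM (0.58 ± 0.18) and did not pass the test (adjusted p = 0.0748). The extracellular antagonist NOG stayed between 0.84 and 4.23 TPM with overlapping groups, and BMP4 itself was at 134, 185, 104 and 167 TPM (-0.26, adjusted p = 0.553).

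The ID genes encode inhibitors of basic helix-loop-helix factors and are the most immediate BMP targets. ID3 was at 469 and 566 TPM without BMS493 and at 895 and 811 TPM with it (0.72 ± 0.17, adjusted p = 0.0170). ID1, at 762 and 874 against 1281 and 1191 TPM, and ID4, at 19.6 and 24.7 against 34.5 and 37.5 TPM, had differences of 0.60 and 0.68 but adjusted p-values of 0.0657 and 0.0793. All 3 were higher in both BMS493 libraries than in either control.

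The homeobox and T-box targets showed the largest changes. TBX3 was at 17.1 and 34.6 TPM without BMS493 and at 98.2 and 72.3 TPM with it (1.75 ± 0.29, adjusted p = 0.000390). MSX1 was at 4.89 and 3.77 against 20.4 and 11.1 TPM (1.60 ± 0.40, adjusted p = 0.0222). MSX2, at 133 and 187 against 275 and 233 TPM, did not pass (0.68, adjusted p = 0.0959). DLX5, a relative of DLX3, was at 6.54 and 3.58 TPM without BMS493 and at 0.76 and 2.65 TPM with it (-1.21 ± 0.31, adjusted p = 0.0276), and DLX4, at 4.39, 6.59, 10.95 and 4.12 TPM, overlapped between the groups.

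TBX3 and SMAD6 kept their calls when any of the 4 libraries was left out, with differences of 1.26 to 2.24 and 0.92 to 1.66. Without the first control library 3 of the 7 BMP calls remained, and ID3 and SMAD7 had adjusted p-values of 0.138 and 0.123. Without the first BMS493 library 2 remained, and MSX1 and DLX5 had adjusted p-values of 0.334 and 0.527. Without the second control library 6 remained, MSX1 having an adjusted p of 0.179. With a pseudocount of 0.1, DLX3, MSX1 and DLX5 were lost (adjusted p = 0.0982, 0.132 and 0.0803). In all but DLX5 and MSX1 among the 7, the second control library lay above the first, and in all but DLX5 the first BMS493 library lay above the second. The same order was common among the genes called higher: the second control library was above the first in 106 of 142 (74.6%, against 57.7% of all genes), and the first BMS493 library was above the second in 104 (73.2%, against 53.1%). Among the 156 called lower, the second control library was above the first in 113 (72.4%) and the first BMS493 library above the second in 66 (42.3%).

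**Figure D3:**
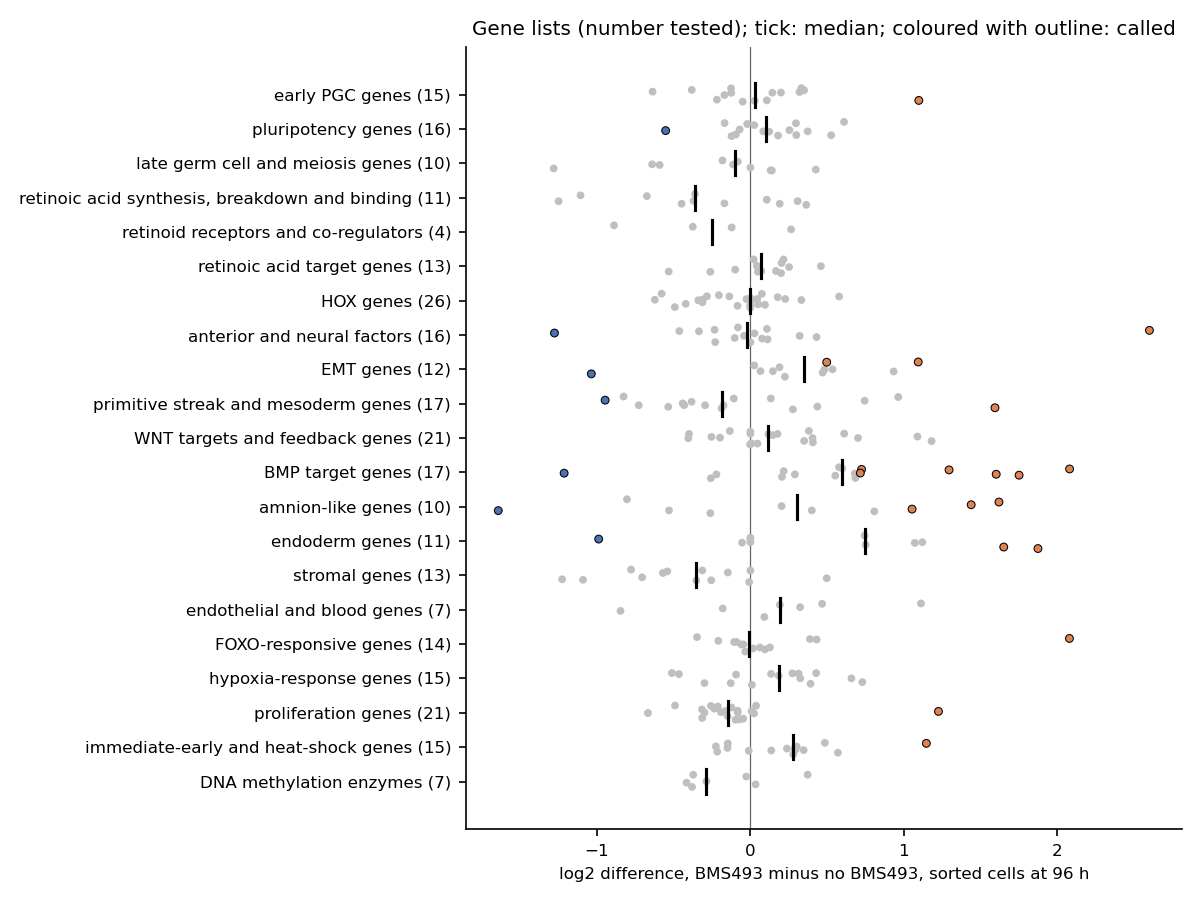
Each point is the log2 difference between sorted cells with and without BMS493 at 96 h (horizontal axis) of a gene in one of 21 lists (rows, with the number of genes tested), the black tick is the median of the list, and outlined orange or blue points were called higher or lower. BMP target genes hold 7 called genes and a median of 0.60, while HOX genes, retinoid genes and WNT targets hold none.

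Genes shared by amnion and extraembryonic mesoderm rose in part. Of 10 amnion-like genes, GATA2, GATA3 and TFAP2A rose and VTCN1 fell, against 1.27% and 1.39% of all genes. The median of the list was 0.30. GATA3, a zinc finger factor of trophoblast, amnion and BMP-treated stem cells, was at 38.9 and 81.4 TPM without BMS493 and at 213 and 144 TPM with it (1.62 ± 0.28, adjusted p = 0.000790). GATA2, its close relative, was at 66.9 and 124 against 278 and 223 TPM (1.44 ± 0.33, adjusted p = 0.0133). TFAP2A was at 9.88 and 12.0 against 29.5 and 19.0 TPM (1.05 ± 0.28, adjusted p = 0.0314). HAND1, a factor of extraembryonic and lateral mesoderm, was at 40.0 and 64.2 against 212 and 113 TPM (1.59 ± 0.32, adjusted p = 0.00296). The groups did not overlap for any of these, and in each the first control library was the lowest and the first BMS493 library the highest.

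The other amnion-like genes went in either direction. KRT18, a keratin of simple epithelia and the most abundant of the list, was at 503 and 608 TPM without BMS493 and at 792 and 673 TPM with it, with groups that did not overlap, and did not pass the test (0.40 ± 0.14, adjusted p = 0.121). VTCN1, an immune checkpoint ligand abundant in amnion, was at 8.36 and 4.48 TPM without BMS493 and at 0.88 and 1.80 TPM with it (-1.64 ± 0.35, adjusted p = 0.00613). GABRP was at 1.33 and 0.70 against 0.00 and 0.30 TPM, TFAP2B at 0.00 to 0.29 TPM, CDX2 at 0.33 to 1.46 TPM and IGFBP3 at 0.30 to 2.91 TPM. ISL1, at 4.31 and 6.93 against 15.4 and 6.86 TPM, overlapped (0.81, adjusted p = 0.0948). The summed level of the 10 genes was 634 and 842 TPM without BMS493 and 1330 and 1070 TPM with it, most of it KRT18. At an unadjusted p below 0.05, 5 of the 10 were higher and 2 lower, against 1750 of all 11197 genes in either direction. Whether other cells within the gate had a part in the rise was not tested. The calls of GATA2, GATA3, TFAP2A and HAND1 were each lost without the first control library (adjusted p = 0.0532 to 0.183) and without the first BMS493 library (0.0684 to 0.416). TFAP2A was also lost without the second control library (0.0877), and VTCN1 without the first control or the first BMS493 library (0.107 and 0.17). With a pseudocount of 0.1, GATA2 kept its call (0.0238), while GATA3, TFAP2A, VTCN1 and HAND1 had adjusted p-values of 0.0591, 0.0577, 0.0593 and 0.125.

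Mesoderm genes were called in both directions, as were 1.27% (higher) and 1.39% (lower) of all genes. Of 17 genes of the primitive streak and mesoderm, HAND1 rose and TBX6 fell (2.73 and 3.52 against 0.84 and 1.47 TPM; -0.95 ± 0.25, adjusted p = 0.0333), and the median was -0.19. TBX6, a factor of presomitic mesoderm, was called without the second BMS493 library but not without any of the other three (adjusted p = 0.0563 to 0.361), nor with a pseudocount of 0.1 (0.349). TBXT, which primate PGCLCs express, was at 504 and 647 against 400 and 448 TPM (-0.43, adjusted p = 0.621). EOMES, the streak factor that drives SOX17 in human PGCLCs, was at 0.19 to 0.40 TPM. EVX1, a homeobox gene of the posterior streak, was at 6.03 and 13.5 against 21.6 and 16.1 TPM (0.96 ± 0.32) and did not pass the test (adjusted p = 0.1). At an unadjusted p below 0.05, 3 genes of the list were higher and 3 lower, against 1750 of all 11197 genes in either direction. MIXL1, at 2.56 and 3.42 against 1.94 and 1.55 TPM, and KDR, at 5.4 and 3 against 1.88 and 1.83 TPM, had differences of -0.53 and -0.83 and did not pass the test (adjusted p = 0.788 and 0.274).

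In the endoderm list, 2 of 11 genes rose and 1 fell, against 1.27% and 1.39% of all genes. The median of the list was 0.74. FOXA2, a pioneer factor of endoderm and axial mesoderm, was at 5.74 and 7.67 TPM without BMS493 and at 31.9 and 22.9 TPM with it (1.87 ± 0.42, adjusted p = 0.0112). APOA1, the main protein of high-density lipoprotein, was at 45.8 and 106 against 284 and 172 TPM (1.65 ± 0.42, adjusted p = 0.0257). APOA2, another apolipoprotein, was at 2.27 and 0.89 against 0.00 and 0.57 TPM (-0.99 ± 0.24, adjusted p = 0.0201). HNF4A, the liver and gut factor, was at 3.47 and 7.82 against 17.2 and 9.23 TPM (1.12 ± 0.34, adjusted p = 0.0690), and FOXA3 at 14 and 12.3 against 23.6 and 21.9 TPM (0.75, adjusted p = 0.153). Of the remaining members, AFP, CER1 and PRSS2, 3 of the 11, were listed at 0 in all 4 libraries, and TTR was at 0.00, 6.15, 2.83 and 7.24 TPM. The summed level of the list was 82.8 and 159 TPM without BMS493 and 393 and 253 TPM with it. FOXA2, APOA1 and APOA2 lost their calls without the first control library (adjusted p = 0.0772, 0.284 and 0.281), without the first BMS493 library (0.174, 0.321 and 0.382) and with a pseudocount of 0.1 (0.315, 0.119 and 0.122). Whether cells of another type had a part in these values was not tested.

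Of 15 early PGC genes, NANOS3 was the only 1 called, against 1.27% of all genes called higher, and the median difference was 0.03. NANOS3, an RNA-binding protein that protects germ cells, was at 146 and 225 TPM without BMS493 and at 434 and 348 TPM with it (1.1 ± 0.29, adjusted p = 0.0342). The call was lost without the first control library (0.79, adjusted p = 0.262), without the first BMS493 library (0.94, adjusted p = 0.303) and without the second (1.26, adjusted p = 0.0733), and with a pseudocount of 0.1 (adjusted p = 0.0933). The differences of SOX17 (0.33, 95% interval -0.25 to 0.92), PRDM1 (0.14, -0.28 to 0.57) and TFAP2C (0.11, -0.27 to 0.48) did not pass the test, and a 2-fold change lies outside each interval. Both groups were sorted on the PRDM1 reporter, so the gate itself favours similar levels of PRDM1. The labels name tdTomato alone, while the paper describes these cells as positive for the NANOS3 reporter too. Whether the gate also selected on NANOS3, and so affected its level, cannot be told. DPPA3, a maternal factor of germ cells, was at 25.8, 17.2, 19.0 and 21.6 TPM, and DND1 at 404, 355, 303 and 398 TPM. Late germ cell and meiosis genes were called in 0 of 10 by limma. At an unadjusted p below 0.05, 2 were lower, against 1750 of all 11197 genes in either direction. STRA8, the retinoic acid-induced gatekeeper of meiosis, was among these 2. STRA8 was at 3.83 and 4.16 TPM without BMS493 and at 1.92 and 2.76 TPM with it (-0.59, adjusted p = 0.22). SYCE3, a component of the synaptonemal complex, had the largest difference of that list (-1.28 ± 0.64, adjusted p = 0.327), at 4.5 and 2.12 against 0.73 and 0.68 TPM, with groups that did not overlap. DAZL and DDX4 did not exceed 0.20 TPM.

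Of 16 pluripotency genes, which include genes that primate germ cells keep (POU5F1, NANOG) and SOX2, which they switch off, DPPA5 alone was called, at 690 and 576 TPM without BMS493 and 383 and 481 TPM with it (-0.55 ± 0.16, adjusted p = 0.0479), which was lost without the first control library (adjusted p = 0.265), without the second (0.0702) and without the first BMS493 library (0.473), and under median-ratio scaling (0.186). Over all genes, 1.39% were called lower. NANOG was at 795, 691, 617 and 705 TPM (-0.17, 95% interval -0.52 to 0.18), and POU5F1 had a difference of -0.07 (-0.27 to 0.13). LIN28A, an inhibitor of let-7 maturation, lay between 851 and 893 TPM in all 4 libraries.

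Retinoid genes, the direct subject of the inhibitor, had no called member at 96 h. Of 11 genes of retinoic acid synthesis, breakdown and binding, limma called 0, and the median was -0.36. At an unadjusted p below 0.05, 4 were lower and none higher, against 1750 of all 11197 genes in either direction. CYP26A1, which degrades retinoic acid and is a classical RAR target, was at 5.06 and 0.95 TPM without BMS493 and at 0.82 and 0.15 TPM with it (-1.25 ± 0.39, adjusted p = 0.0735). CRABP2, a carrier that brings the ligand to RARs, was at 54.7 and 43.1 against 14.7 and 32.6 TPM (-1.11 ± 0.36, adjusted p = 0.0885). DHRS3, which turns retinal back to retinol and is induced by retinoic acid, was at 18.2 and 32.8 against 15.96 and 14.02 TPM (-0.67, adjusted p = 0.106). In all 3 both BMS493 libraries lay below both controls, which holds for 29.6% of all genes. The synthesising enzymes ALDH1A2 (1.26, 1.65, 2.83 and 1.59 TPM) and ALDH1A3 (36.8, 28.7, 25.3 and 32.8 TPM) overlapped between groups, and ALDH1A1 was listed at 0.

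Among the receptors, RARG was the most abundant RAR, at 25.9 and 20.9 TPM without BMS493 and 16.1 and 19.5 TPM with it (-0.37, adjusted p = 0.368). RARB, itself a target of RARs, was at 5.29, 2.49, 3.53 and 6.00 TPM (0.27, adjusted p = 0.772), and RARA did not exceed 0.80 TPM. RXRG had the largest difference of the receptor list (-0.89), at 5.78 and 5.56 against 1.70 and 3.81 TPM, and was not called. Of 4 receptors and co-regulators tested, limma called 0, and the median was -0.25. At an unadjusted p below 0.05, 1 was lower and 0 higher, against 1750 of all 11197 genes in either direction. Of 13 further target genes limma called 0 (1 lower at an unadjusted p below 0.05; median 0.07), and of 26 HOX genes 0 (none at an unadjusted p below 0.05; median 0.00). The 30 HOX genes in the table summed to 4.06 and 9.04 TPM without BMS493 and to 5.15 and 3.08 TPM with it. In each library 16 or 17 of them were listed at 0. A decrease could therefore hardly be seen, and the lack of calls says little about these genes. CDX1, a caudal factor with a retinoic acid response element, was at 13.7, 20.2, 13.8 and 17.4 TPM.

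Of 12 genes of the epithelial to mesenchymal transition, SNAI1 and SPARC rose and VIM fell, against 1.27% and 1.39% of all genes. VIM was the only member with a negative difference, and in 7 of the 12 both BMS493 libraries lay above both controls (17.2% of all genes). The list holds epithelial genes (CDH1, EPCAM, CLDN6) as well as mesenchymal ones, so that its median of 0.35 does not stand for either state. SNAI1, a repressor of epithelial adhesion genes, was at 16.5 and 19.9 TPM without BMS493 and at 32.6 and 48.5 TPM with it (1.09 ± 0.20, adjusted p = 0.00109), and was lost only without the second BMS493 library (0.82, adjusted p = 0.0632). SPARC, a matrix glycoprotein, was at 569 and 654 against 868 and 855 TPM (0.50 ± 0.11, adjusted p = 0.0121), and was lost without the first control library or either BMS493 library (adjusted p = 0.0583 to 0.137). The adhesion molecules on either side of the transition were not called. CDH1 was at 31.2 and 36.4 against 37.4 and 39.9 TPM (0.19, adjusted p = 0.698), and CDH2 at 370, 340, 396 and 390 TPM (0.15, adjusted p = 0.803). SNAI2 lay between 0.51 and 1.79 TPM, with overlapping groups.

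Further genes with large increases were of mixed function. APELA, the peptide ligand of the apelin receptor, was at 1.93 and 1.27 TPM without BMS493 and at 9.61 and 8.45 TPM with it (1.96 ± 0.45, adjusted p = 0.0126), while its receptor APLNR, at 1.70, 2.26, 1.74 and 0.89 TPM, was not called. MLNR, the motilin receptor, was at 1.79 and 3.31 against 13.96 and 9.14 TPM (1.83 ± 0.32, adjusted p = 0.000919). GRIK3, a kainate receptor subunit, was at 1.45 and 1.14 against 7.63 and 4.81 TPM (1.63 ± 0.25, adjusted p = 0.000286) and kept its call whichever of the 4 libraries was left out (1.34 to 1.91). NTF3, a neurotrophin, was at 5.83 and 13.5 against 50.3 and 18.9 TPM (1.68 ± 0.48, adjusted p = 0.0480).

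SLC38A3, a glutamine transporter, RAB20, a small GTPase of endosomes, and PARP10, a mono-ADP-ribosyltransferase, rose by 1.61 to 1.63 on the log2 scale. PARP10 was at 1.89 and 4.98 TPM without BMS493 and at 11.5 and 11.9 TPM with it (adjusted p = 0.00122). Of the calls in these paragraphs, those of APELA, MLNR, NTF3, SLC38A3 and RAB20 were lost without the first BMS493 library (adjusted p = 0.0684 to 0.565), those of NTF3 and PARP10 without the first control (0.323 and 0.0715), those of APELA, SLC38A3 and RAB20 without the second control (0.0578 to 0.121), and that of APELA without the second BMS493 library (0.0534). With a pseudocount of 0.1 the calls of APELA, MLNR, NTF3, SLC38A3 and RAB20 were lost (adjusted p = 0.0656, 0.112, 0.303, 0.127 and 0.173).

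Genes with the largest decreases were mostly low. PIF1, a DNA helicase, was at 9.12 and 17.1 TPM without BMS493 and at 2.73 and 3.22 TPM with it (-1.77 ± 0.31, adjusted p = 0.000833). TNFRSF18, a receptor of the tumour necrosis factor family, was at 1.53 and 2.70 TPM without BMS493 and was listed at 0 with it (adjusted p = 0.000244). FGF10, a growth factor of limb and lung buds, was at 3.17 and 3.56 against 0.41 and 0.76 TPM (-1.47 ± 0.26, adjusted p = 0.000998), and HCLS1, a signalling adaptor of blood cells, at 2.85 and 4.12 against 0.37 and 0.77 TPM (-1.51 ± 0.26, adjusted p = 0.000833). CXCL12, the chemokine that attracts migrating germ cells, was at 3.04 and 3.44 against 0.56 and 0.56 TPM (-1.44 ± 0.32, adjusted p = 0.0108).

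MMP9, a matrix protease, was at 24.8 and 36.3 TPM without BMS493 and at 6.44 and 16.9 TPM with it (-1.43 ± 0.37, adjusted p = 0.0272), and RSRP1, a splicing-related protein and the most abundant of this group, at 81.5 and 96.3 against 27.4 and 38.7 TPM (-1.42 ± 0.29, adjusted p = 0.00474). The others were PGAM2, PPARG, CCN2, PM20D1, SPACA6, ERVV-2 and MUS81, all at 7.23 TPM or below in each of the 4 libraries compared. Their differences were -1.70 to -1.38, with adjusted p-values of 0.0112 to 0.0401. ERVV-2, an endogenous retroviral envelope gene, was uneven without BMS493, at 5.04 and 0.83 TPM. Of these 14 decreases, only PIF1, TNFRSF18, PGAM2 and ERVV-2 remained called without the first BMS493 library, and FGF10 and HCLS1 had adjusted p-values of 0.0618 and 0.0577. Without the second control library ERVV-2, FGF10, HCLS1 and TNFRSF18 remained, without the first control library all but CCN2, ERVV-2, PGAM2, PM20D1 and PPARG, and without the second BMS493 library all but CXCL12, ERVV-2, MUS81, PGAM2, PM20D1, PPARG and SPACA6. With a pseudocount of 0.1 the calls of CCN2, ERVV-2, MMP9, MUS81, PGAM2, PM20D1 and PPARG were lost (adjusted p = 0.069 to 0.329).

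Among the remaining lists, few genes were called, where 1.27% (higher) and 1.39% (lower) of all genes were. CDKN1C, an imprinted inhibitor of cyclin-dependent kinases, was at 110 and 189 TPM without BMS493 and at 341 and 334 TPM with it (1.22 ± 0.29, adjusted p = 0.0168), and was the only called gene of 21 proliferation genes, whose median was -0.15. It was lost without the first control library (adjusted p = 0.207) and without either BMS493 library (0.143 and 0.0761). Cell cycle genes such as CCNB1 (457, 476, 448 and 340 TPM) and MCM2 (209, 212, 212 and 211 TPM) were not called. JUNB, an AP-1 factor, was at 81.0 and 151 against 214 and 284 TPM (1.15 ± 0.30, adjusted p = 0.0274), the only call among 15 immediate-early and heat-shock genes, and was lost without the first control library (adjusted p = 0.309) and without either BMS493 library (0.0994 and 0.240). In this list the second library of either group was often higher: EGR1 was at 90.2 and 205 TPM without BMS493 and at 123 and 227 TPM with it, and FOS at 45.6, 95.4, 44.5 and 137 TPM.

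By limma, 0 genes were called among 21 WNT targets and feedback genes, 13 stromal genes, 7 endothelial and blood genes, 15 hypoxia-response genes and 7 DNA methylation enzymes. At an unadjusted p below 0.05 the WNT list had 3 higher and 0 lower, the stromal list 0 and 4, and the endothelial and blood list 1 and 1. The hypoxia list had 3 and 1, and the methylation enzymes 0 and 1. Over all 11197 genes, 1750 were below this threshold in either direction. In the WNT list, the agonist RSPO3 was at 35.9 and 43.8 TPM without BMS493 and at 127 and 65.3 TPM with it (1.18 ± 0.37, adjusted p = 0.0786), and AXIN2, the standard WNT readout, stayed between 0.88 and 2.24 TPM. Stromal genes summed to 139 and 186 TPM without BMS493 and to 153 and 127 TPM with it. DCN was at 26.2 and 28.6 against 11.9 and 12.8 TPM (-1.09, adjusted p = 0.199).

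The effect in sorted cells was then set beside that in unsorted cells at earlier times, each with its own controls. BMS493 had called 14 genes at 12 h (0.125%), 49 at 24 h (0.438%) and 1287 at 48 h (11.5%; 6.87% higher and 4.63% lower), against 298 at 96 h. The difference between the effects at 96 h and 48 h was tested in the same fit and was called for 320 genes (2.86%), 122 more positive (1.09%) and 198 more negative (1.77%) at 96 h. The cells of 48 h were unsorted and those of 96 h sorted, so that time and sorting cannot be told apart. The 320 also depended on a single library, since 1228 genes were called when the second control library of 48 h was left out.

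VIM had the opposite sign at the earlier times. It was at 299 and 315 TPM without BMS493 and at 1083 and 1059 TPM with it at 48 h (1.80 ± 0.19, adjusted p = 8.57e-08), after 145 and 171 against 394 and 399 TPM at 24 h (1.32, adjusted p = 0.000175). The effect at 96 h was lower than that at 48 h by 2.84 on the log2 scale (difference -2.84 ± 0.27, adjusted p = 1.44e-08). SNAI1 rose at 24, 48 and 96 h alike (0.94, 0.99 and 1.09; adjusted p = 0.0176, 0.000846 and 0.00109). SNAI2 rose at 48 h (2.24) but had no measurable difference at 96 h (0.02), and its effects differed (-2.21, adjusted p = 0.00285).

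For GATA3 and TBX3 the groups were close or overlapped at 48 h. At that time GATA3 was at 166 and 160 TPM without BMS493 and at 171 and 169 TPM with it, and TBX3 at 142 and 191 against 109 and 179 TPM. By 96 h the sorted cells without BMS493 held 38.9 and 81.4 TPM of GATA3 and 17.1 and 34.6 TPM of TBX3, while those with BMS493 held levels nearer to those of 48 h. The effects differed between the times for GATA3 (1.56 ± 0.39, adjusted p = 0.0208) and TBX3 (1.98 ± 0.40, adjusted p = 0.00334), and for EN2 (2.31 ± 0.53, adjusted p = 0.00948), but not past the threshold for HAND1 (1.06, adjusted p = 0.215). HAND1 was at 1176 and 1186 against 1517 and 1930 TPM at 48 h (0.53, adjusted p = 0.287), so that both BMS493 libraries were already the higher ones, at levels above every library of sorted cells at 96 h. CRABP2 was also high in unsorted cells of 48 h, at 896 and 844 TPM without BMS493 and 702 and 551 TPM with it, and VTCN1 was at 16.5 and 14.04 against 14.5 and 35.8 TPM. The effect on VTCN1 was lower at 96 h than at 48 h (-2.20 ± 0.50, adjusted p = 0.00790).

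**Figure D4:**
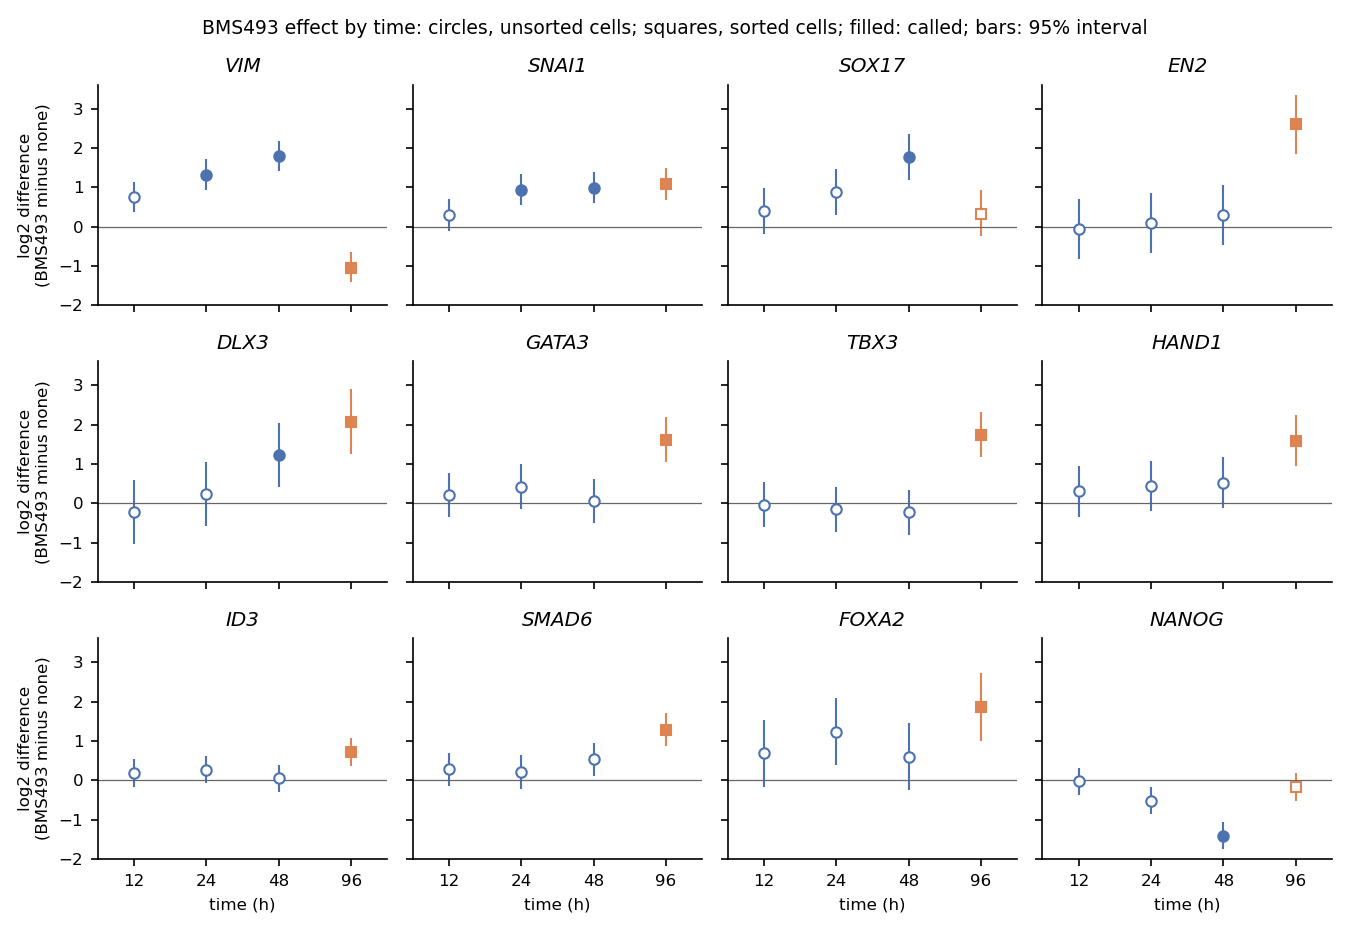
The log2 difference between cells with and without BMS493 (vertical axis) is plotted at 12, 24, 48 and 96 h (horizontal axis) for 12 genes, with 95% intervals, blue circles for unsorted cells, orange squares for sorted cells, and filled symbols for called differences. VIM turns from 1.80 at 48 h to -1.04 at 96 h, SNAI1 stays near 1 from 24 h, and EN2, GATA3, TBX3, HAND1, ID3, SMAD6 and FOXA2 are called at 96 h alone among the 4 times.

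Among the 11 genes of retinoic acid synthesis, breakdown and binding, DHRS3 fell and ALDH1A3 and RDH10 rose at 48 h. Over all genes, 4.63% were called lower and 6.87% higher at that time. DHRS3 was at 48.2 and 57.5 TPM without BMS493 and at 18.4 and 27.4 TPM with it at 48 h (-1.19, adjusted p = 0.000599). CYP26A1 was at 60.6 and 52.3 against 23.4 and 24.4 TPM at 24 h, but did not pass the test there (-1.20, adjusted p = 0.306), and at 131 and 115 against 150.5 and 57.0 TPM at 48 h. STRA8 was at 7.97 and 8.16 against 3.20 and 3.49 TPM at 24 h. At 48 h it was at 8.25 and 12.2 against 2.79 and 2.51 TPM, and RARG at 66.6 and 99.0 against 51.7 and 45.8 TPM. At 48 h, 0 of 4 retinoid receptors and co-regulators were called higher and 1 lower. Of 10 late germ cell and meiosis genes 0 were higher and 1 lower, and of 13 further target genes 1 and 1. HOX genes, which had 8 called higher of 26 at 48 h (6.87% of all genes), had none called at 96 h. Of the 26, 6 had effects called lower at 96 h than at 48 h (1.77% of all genes). HOX genes were at or near 0 TPM in the sorted cells of 96 h, so the lower effects there say little about a response. Of 16 pluripotency genes, 9 were called lower at 48 h and 1 at 96 h (4.63% and 1.39% of all genes). Effects were called higher at 96 h than at 48 h for 6 of them (1.09% of all genes).

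**Figure D5:**
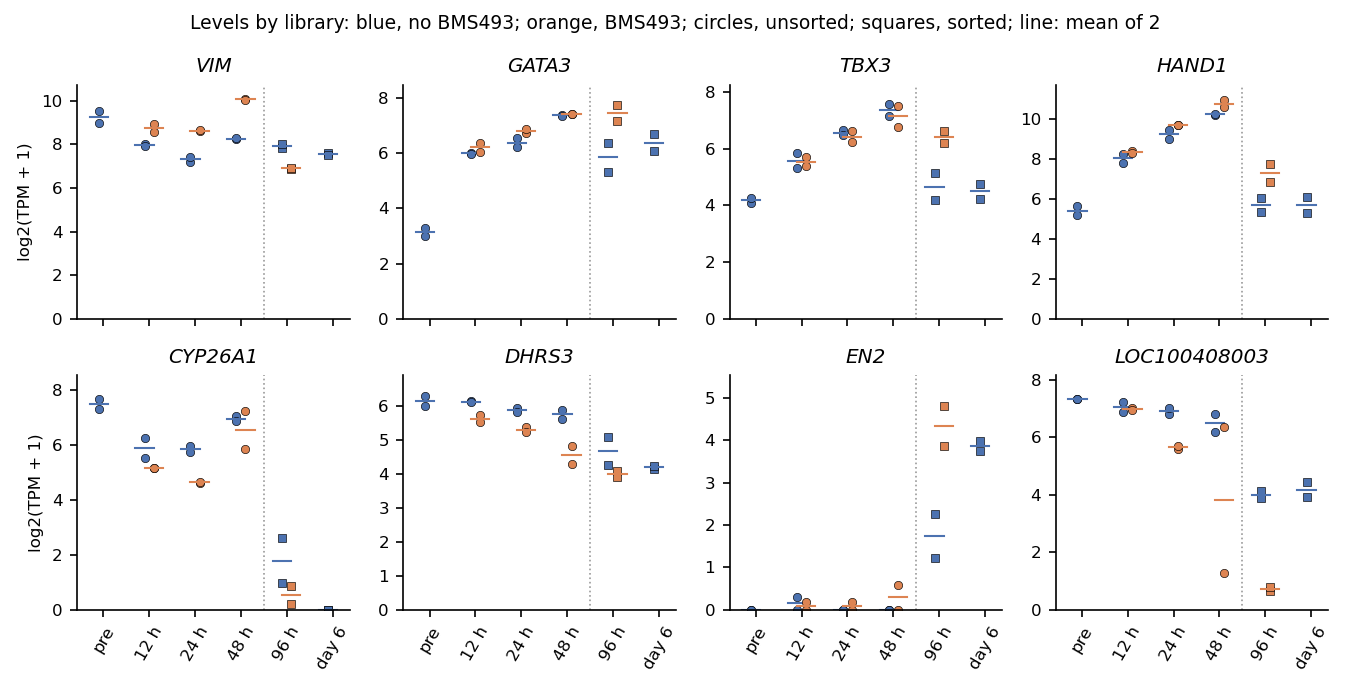
Levels of 8 genes in each library are shown as log2(TPM + 1) (vertical axis) from pre-induced cells through 12, 24 and 48 h (circles, left of the dotted line; unsorted at 12 to 48 h) to sorted cells at 96 h and day 6 (squares), blue without BMS493 and orange with it, with a line at the mean of 2. GATA3 and TBX3 lie together at 48 h and apart at 96 h, VIM changes sides between 48 and 96 h, and the 48 h libraries of LOC100408003 with BMS493 lie far apart.

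Sorted cells of day 6 without BMS493 give a later reference. Their comparison with 96 h uses the same control libraries as the BMS493 comparison, so the values are only set side by side. EN2 was at 12.4 and 14.8 TPM at day 6, NANOS3 at 394 and 487 TPM, SMAD6 at 104 and 106 TPM and DLX3 at 10.3 and 16.6 TPM, all above the controls of 96 h. GATA3 at 66.6 and 102 TPM, TBX3 at 17.8 and 26.1 TPM, HAND1 at 38.1 and 66.5 TPM and FOXA2 at 2.37 and 2.48 TPM overlapped with the controls of 96 h or lay below them, and VIM was at 194 and 184 TPM. The transgenic line gives sorted cells of 96 h kept in DK20FA and induced with BMP4 and enforced SOX17 but without IWR1 (TG_BLSERSOX17_BH_96h). Per the paper, dexamethasone was added to enforce SOX17, and the pre-treatment with IM12 and activin A was introduced only with IWR1. These cells therefore differed from the BMS493 cells in several treatments at once. In them DLX3 was at 48.06 and 36.72 TPM and DEPP1 at 13.5 and 15.9 TPM, both overlapping with the BMS493 libraries. EN2, at 2.29 and 7.02 TPM, and VIM, at 68.4 and 59.7 TPM, lay below the BMS493 libraries.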

How the data were processed

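The authors deposited 1 table of gene-level TPM for 14812 genes in 54 libraries (27 groups of 2). Per the study's methods, reads were aligned to Callithrix_jacchus_cj1700_1.1 with STAR, filtered on mapping quality, quantified with RSEM, and restricted to genes shared with human. TPM were used as deposited. Only genes reaching 1.5 on the log2(TPM + 1) scale in some library (11197) were tested, and log2(TPM + 1) was fitted with limma 3.58.1 in R 4.3.3, with a mean per group over all 54 libraries (27 residual degrees of freedom), an intensity trend, tests in both directions and Benjamini-Hochberg adjustment over all genes tested. A log2 difference on this scale understates the change of low genes. ± is the standard error and n = 2 libraries a group. A called gene has an adjusted p below 0.05.

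The comparison, its marker genes and the gene lists were chosen with earlier results of these data known, and lists are described by counts and medians, with no set test. Named genes are the list members, 11 genes followed in the study, the 15 largest increases and 15 largest decreases among called genes with a symbol, and the 5 largest differences each way between 96 and 48 h. LOC100408003 has no symbol and was named after its values were seen, as 1 of the 4 largest changes. A planned search of promoters for retinoic acid response elements was not run because no promoter sequences of this build were used here, and no sequences or coordinates are given.

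Alternatives were a pseudocount of 0.1, other filters on low values, fits on 4 or 16 libraries, a replicate block, median-ratio and quantile scaling, other prior variances, and leaving out each library.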

Additional observations from a re-analysis of the deposited data

Results flagged for a closer look

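The effect of BMS493 in sorted cells at 96 h was set against its effect in unsorted cells at 48 h by an interaction term in the limma fit, and 28 of 64 named genes differed past the threshold, against 2.86% of all 11197 genes tested. The 64 include the 5 largest differences each way and genes called at 96 h, so that the count was favoured by their choice and is only a description. The sorting and the time changed together, so they cannot be told apart, and values below are the effect at 96 h minus that at 48 h on the log2 scale.

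Of the genes that rose in sorted cells, these were not called at 48 h: DEPP1 (2.97), APELA (2.40), EN2 (2.31), PARP10 (2.09), TBX3 (1.98), MLNR (1.87), GRIK3 (1.75) and GATA3 (1.56). FOXJ1 (3.29), a factor of motile cilia, NXNL2 (2.71), CASQ1 (2.59), a calcium store protein of muscle, and RND1 (2.43) had been lower with BMS493 at 48 h (-2.75, -1.90, -2.59 and -1.57) and were not called at 96 h. CASQ1 was listed at 0 in all 4 libraries of 96 h. Pluripotency genes had been lower at 48 h as well, which gave differences of 1.85 for SOX2, 1.24 for NANOG and 0.75 for POU5F1. SOX2 did not exceed 1.21 TPM in the 4 libraries of 96 h, so its difference stems from its fall at 48 h.

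In the other direction, APLNR (-3.55), the apelin receptor, and CD226 (-3.43) had risen at 48 h (3.17 and 2.96) and were not called at 96 h. CCDC80 (-3.05), a matrix protein, VIM (-2.84) and VCAM1 (-2.79), an adhesion molecule, changed sign, from 1.70, 1.80 and 1.68 at 48 h to -1.35, -1.04 and -1.11 at 96 h. The call of VIM at 96 h remained whichever of the 4 libraries was left out, that of VCAM1 was lost in each case (adjusted p = 0.0532 to 0.248), and that of CCDC80 remained only without the first control library (0.0181, against 0.0578 to 0.361 otherwise). HCLS1 (-2.58) also changed sign, from 1.06 to -1.51. SNAI2 (-2.21) and SOX17 (-1.44) had risen at 48 h (2.24 and 1.77) and had small differences at 96 h (0.02 and 0.33). VTCN1 (-2.20), MMP9 (-2.06), ERVV-2 (-1.82), FGF10 (-1.70) and APOA2 (-1.35) were called lower at 96 h and were not called at 12, 24 or 48 h.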

How the results depend on the processing

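All 298 genes called at 96 h kept their direction under every alternative that tested them, and the cause of the changes in number was not tested beyond what each alternative removes. For the effect at 96 h, a pseudocount of 0.1 gave 204 called genes (90 higher) and 2 past the stricter definition of more than 4-fold, with 1 amnion-like and 0 endoderm genes higher, and at that pseudocount SNAI2, not called, turned to -0.05. Without the filter on low values, and without the intensity trend, 2 genes passed the stricter definition. A fit on the 4 libraries alone, with 2 residual degrees of freedom, called 0 genes (0 higher, 0 lower, 0 past the stricter definition, and 0 higher in the BMP, amnion-like and endoderm lists), with 1644 at an unadjusted p below 0.05. A fit on the 16 libraries with and without BMS493 at 12 to 96 h, with 8 residual degrees of freedom, called 130 (74 higher and 56 lower), 0 past the stricter definition and 1 amnion-like gene higher. Median-ratio scaling called 247 higher and 10 BMP targets higher, moved POU5F1, not called, to 0.02, and shifted the median of the difference between 96 and 48 h from -0.094 to 0.016; quantile normalization called 228 higher. 

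For the difference between 96 and 48 h, the 8 libraries alone gave 1 called gene (0 higher, 1 lower; 1147 at an unadjusted p below 0.05) and the 16 libraries 146 (74 higher, 72 lower). Median-ratio scaling gave 185 higher and quantile normalization 192.

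When single libraries were left out, 44 to 230 genes were called at 96 h (23 to 112 higher, 21 to 158 lower), 0 to 9 passed the stricter definition, and 2 to 6 BMP targets, 0 to 4 amnion-like genes and 0 to 4 endoderm genes were called higher. Of the 298 calls, 129, 113, 42 and 129 remained without the first and second control and the first and second BMS493 library. The difference between 96 and 48 h gave 179 to 1228 calls (63 to 165 higher, 94 to 1063 lower). Among uncalled genes, the sign turned for FOXJ1 (-0.10 to 1.19), SNAI2 (-0.42 to 0.47, and -0.10 without the first control) and SOX2 (-0.45 to 0.70, and -0.05 without the second BMS493 library).

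Same-numbered replicates of the 2 groups did not deviate together over all genes tested (r = -0.0264 at 96 h). EGR1 and FOS were nevertheless higher in the second library of both groups, and whether the numbers pair the libraries cannot be told from r. With the replicate number as a block 291 genes were called (137 higher, 154 lower), and NTF3 and DPPA5 lost their calls (adjusted p = 0.0520 for both).

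The limits are the 2 libraries per group from 1 cell line, a table of TPM without depth, and a spread estimated mostly from other libraries.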
